A study of Rattus norvegicus with 6 samples.

Results

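The genes described here encode integrins, the cell's receptors for its surrounding matrix, and proteins of the basement membrane to which endothelial cells attach. They were chosen by gene name from the deposited count table, as the rows for integrin alpha and beta subunits, laminin chains and collagen IV chains, with Fn1, Nid1, Nid2, Agrn, Col15a1 and Col18a1. This gave 47 of 33566 genes, of which 17 were integrin alpha subunits, 8 integrin beta subunits, 10 laminin chains, 6 collagen IV chains and 6 other basement membrane genes. Hspg2, which encodes perlecan and was also sought by name, was not found under that name. In all, 40 of the 47 had at least 10 counts summed over the libraries and could be tested.

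Primary rat brain microvascular endothelial cells (rBMECs), the cells that form the wall of brain capillaries, were used after a single passage. They came from the cerebral forebrain of Sprague-Dawley rats aged 18 to 22 days and were purified in culture. Poly(A) RNA was sequenced from 3 cultures treated for 24 h with homocysteine (Hcy), a sulfur-containing intermediate of methionine metabolism, and from 3 cultures given its solvent, double-distilled water (Veh). The labels give an Hcy dose of 100 µM and also a prepared solution of 50 µM, so the dose is uncertain. The series calls the 3 libraries of each group biological replicates but does not say whether they came from separate isolations or animals, so p-values measure only the spread between these libraries.

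Integrins are receptors made of an alpha and a beta subunit that hold cells to matrix proteins and signal from them. The vascular basement membrane is a thin sheet built from a laminin network and a collagen IV network, joined by nidogens and perlecan. Each laminin is a trimer of an alpha, a beta and a gamma chain, and the alpha chain carries most of the sites that integrins bind. In brain vessels this sheet lies between the endothelium, pericytes and astrocyte endfeet and takes part in the blood–brain barrier.

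The libraries held 14024997 to 16764584 counts on genes, and 3 counts, taken as the floor, corresponded to 0.178 to 0.215 CPM, the usual count scale corrected for library size. The members took 3.37% to 4.57% of all counts. Of 17 endothelial markers found by name, 16 were above the floor in every library, with a summed level of 11152 to 11588 CPM in Hcy and 9775 to 11235 CPM in Veh, but Cldn5, which encodes the main claudin of the blood–brain barrier, was at 0 counts in all 6 libraries. Veh replicate 3 stood apart. Relative to the mean of the other Veh libraries, its log2 level fell with gene length. The median was 0.35 for genes under 1 kb and -0.40 for genes over 8 kb. These medians cover the tested genes above a set mean level, not only the members. The members were long, with a median length of 4938 bases beside 2225 for all tested genes, and all 27 members with a mean of at least 10 CPM were lower in Veh replicate 3 than in the other Veh libraries (median log2 difference of -0.35). Counts by family and gene values that moved much without this library are given both ways.

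Sequences before the start sites of members on which the results turn are shown first. They are 300-base windows, 250 bases before and 50 after the annotated start, from RefSeq's GRCr8 assembly, in which 37 of the 47 members had an entry matched by symbol. The deposited table names no genome build, so these positions are not comparable with the deposited ones. Lower case is used throughout except for the GC box GGGCGG (or CCGCCC on the other strand) and the TATA box TATAAA (or TTTATA), which are in capitals. The capitals mark letters only and are not shown to be bound. Lamb1 (chr6:53562846-53563145, + strand), Lama4 (chr20:43946648-43946947, + strand) and Itga3 (chr10:80518852-80519151, - strand) are shown because their mRNA levels differed between the groups. Col4a1 (chr16:84885347-84885646, + strand) is shown because its window overlaps that of Col4a2, the partner chain transcribed in the other direction.
Lamb1: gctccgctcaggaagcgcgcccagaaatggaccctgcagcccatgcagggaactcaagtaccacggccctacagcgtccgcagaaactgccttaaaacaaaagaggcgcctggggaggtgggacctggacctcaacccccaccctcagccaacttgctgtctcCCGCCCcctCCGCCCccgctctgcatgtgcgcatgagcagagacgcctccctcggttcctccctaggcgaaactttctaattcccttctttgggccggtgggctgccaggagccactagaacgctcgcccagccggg
Lama4: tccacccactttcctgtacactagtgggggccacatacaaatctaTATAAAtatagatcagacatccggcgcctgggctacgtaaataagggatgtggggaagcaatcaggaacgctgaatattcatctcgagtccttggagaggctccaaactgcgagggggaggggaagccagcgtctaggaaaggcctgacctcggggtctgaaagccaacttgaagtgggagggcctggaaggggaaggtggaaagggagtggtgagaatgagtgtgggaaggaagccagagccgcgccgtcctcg
Itga3: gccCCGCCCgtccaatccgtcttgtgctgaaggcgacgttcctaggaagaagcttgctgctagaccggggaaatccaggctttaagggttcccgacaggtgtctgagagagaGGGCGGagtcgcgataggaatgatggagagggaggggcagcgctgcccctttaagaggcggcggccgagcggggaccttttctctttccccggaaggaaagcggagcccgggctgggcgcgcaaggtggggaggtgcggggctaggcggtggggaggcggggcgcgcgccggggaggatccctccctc
Col4a1: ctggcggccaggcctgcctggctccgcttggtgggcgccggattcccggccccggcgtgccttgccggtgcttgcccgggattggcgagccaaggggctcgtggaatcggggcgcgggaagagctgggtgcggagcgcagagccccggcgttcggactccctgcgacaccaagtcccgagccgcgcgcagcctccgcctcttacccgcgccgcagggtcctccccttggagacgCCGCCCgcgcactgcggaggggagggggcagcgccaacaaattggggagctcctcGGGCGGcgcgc

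In GRCr8 the start sites of Col4a1 and Col4a2 lay 77 bases apart on opposite strands, and their windows shared 176 bases, so both GC boxes printed for Col4a1 were also in the Col4a2 window. The deposited table lists Col4a1 at chr16:83522162-83632153 (+) and Col4a2 at chr16:83387364-83438561 (-), on a build it does not name. The Lamb1 window held GC boxes whose first letters lay 87 and 78 bases before the start, and the Itga3 window held them 247 and 138 bases before the start. The Lama4 window held no GC box but a TATAAA 205 bases before the start. Each motif was searched separately and on both strands. GGGCGG was in 33.1%, CCAAT in 37.5% and TATAAA in 14.2% of the 33469 promoter windows of the same length. GGGCGG was in 22 of the 37 member windows. Member windows had a median GC content of 60% and a median of 14 CpG sites, beside 51.7% and 7 over all windows.

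The first question was which of these genes differed in mRNA level between Hcy and Veh cultures. Lamb1, Lama4 and Nid2, which encode a laminin beta chain, a laminin alpha chain and a nidogen, were higher in Hcy, and Itga3, the alpha subunit of a laminin-binding integrin, was lower. These 4 of 40 members (10%) passed edgeR's quasi-likelihood test, at a p of 0.05 or less after Benjamini-Hochberg adjustment, beside 2.34% of all 14603 genes tested (1.32% higher and 1.01% lower in Hcy). The log2 fold changes of these genes lay between -0.54 and 0.76, and none reached an absolute value of 1. Thus 0 members met the study's joint threshold of adjusted p and absolute log2 fold change of at least 1, which 0.486% of all genes met in edgeR. With DESeq2 the count was also 0, and with the unadjusted p it was 1, Col15a1. The share of all genes was not computed for these settings.

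Most tested members had a positive fold change. In all, 29 were higher and 11 lower in Hcy, so 72.5% lay above 0 beside 46.9% of all genes. The median log2 fold change over the tested members was 0.18, beside -0.02 over all genes tested. Without Veh replicate 3, 24 were higher and 16 lower (60% above 0, beside 49.4% of all genes), and the member median was 0.07. For 14 members every Hcy library lay on the same side of every Veh library, which is 35% of those tested beside 20.1% of all genes. Of these, 13 were higher in Hcy and 1 was lower, where the background was 10.8% and 9.27%. Among the libraries other than Veh replicate 3, 21 members were apart, 13 higher and 8 lower (52.5%, beside 38.4% of all genes). An unadjusted p of at most 0.05 was reached by 14 members, 12 higher and 2 lower, beside 13.4% of all genes. This count was 8 without Hcy replicate 3, 7 higher and 1 lower, beside 10.0% of all genes. It was 15 without Veh replicate 3, beside 21.0% of all genes, and 10 to 17 without another single library, beside 10.5% to 11.9%. The number passing the adjusted test also depended on single libraries. Without Hcy replicate 1, 2 or 3 only Lamb1 passed, where 80, 95 and 81 genes of the whole table passed in place of 341. Without Veh replicate 3, 8 members passed, beside 6.67% of all genes: Lamb1, Lama4, Nid2, Itgax and Agrn were higher, and Itga3, Col4a5 and Lama5 were lower.

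**Figure D1:**
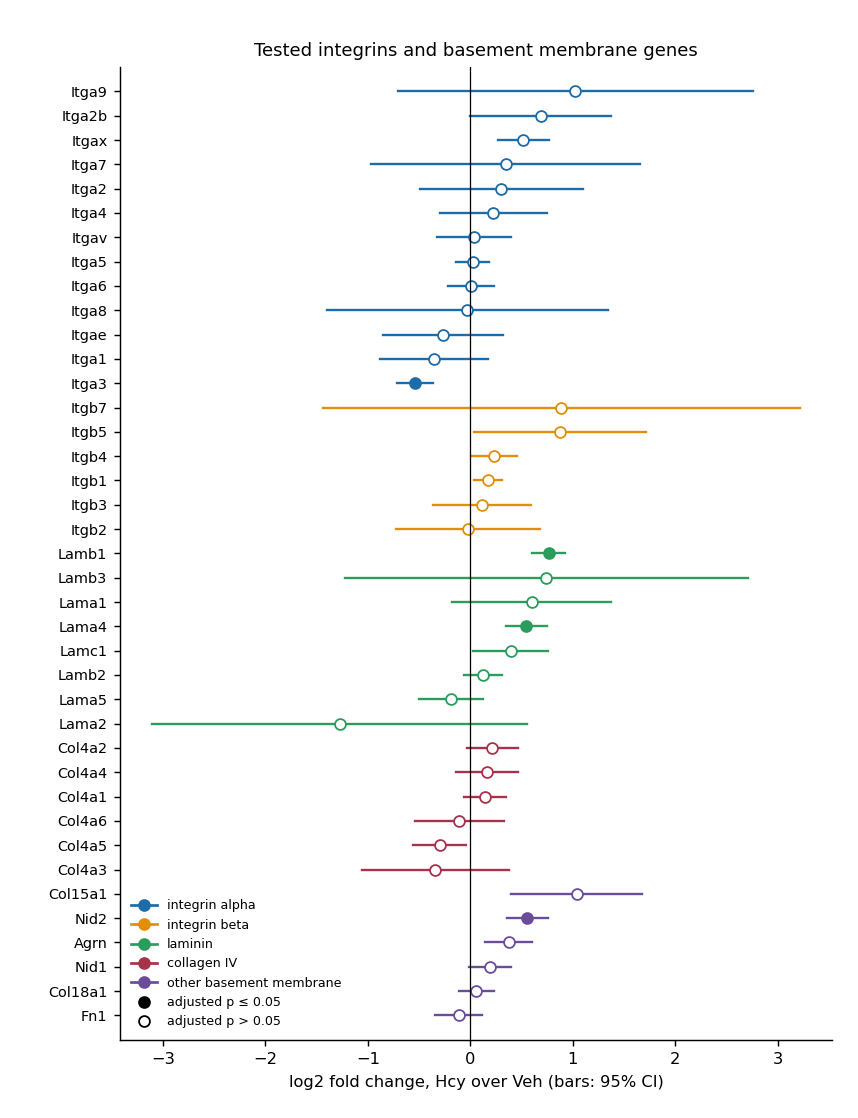
Log2 fold change of Hcy over Veh for tested members, by family, with 95% confidence intervals from edgeR (n = 3 libraries per group). Filled points are the 4 genes with an adjusted p of at most 0.05, of which Lamb1, Lama4 and Nid2 lie to the right of 0 and Itga3 to the left.

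Of the 9 tested laminin chains, 7 were above 0 and 2 passed the test, both higher in Hcy, beside 46.9% of all genes above 0 and 2.34% passing, and the median log2 fold change was 0.39. The median was 0.24 without Veh replicate 3, with 7 again above 0 and 3 passing, 2 higher and 1 lower, beside 6.67% of all genes. Lamb1 encodes the beta1 chain, present in the laminins that endothelial cells make. Its level was 1223, 1206 and 1211 CPM in Hcy replicates 1 to 3 and 763, 725 and 655 CPM in Veh replicates 1 to 3. Every Hcy library was above every Veh library, and the Hcy libraries lay close together (1213 ± 8.47 CPM against 714 ± 54.9 CPM, mean ± SD, n = 3 each). The fold change was 1.70, a log2 value of 0.76 with a standard error of 0.07, and the edgeR adjusted p was 0.00118. Lamb1 passed in all 14 alternative analyses, at log2 values of 0.71 to 0.82. The deposited table places it at chr6:50528823-50596079 on the + strand.

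Lama4, the alpha4 chain of the main laminin of mature endothelium, had 1511, 1599 and 1511 CPM in Hcy and 1161, 1089 and 918 CPM in Veh. The groups did not overlap, and Veh replicate 3 was the lowest library. The log2 fold change was 0.54 with a standard error of 0.09 (edgeR adjusted p = 0.0161), and 0.45 without Veh replicate 3 (adjusted p = 0.000779). The adjusted p was above 0.05 without Hcy replicate 1 (0.0794), Hcy replicate 2 (0.0888), Hcy replicate 3 (0.0906) or Veh replicate 2 (0.0606), with the log2 value between 0.45 and 0.62 over all alternatives. The deposited row lies at chr20:44060731-44209614 on the + strand.

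Lamc1 encodes the gamma1 chain that most vascular laminins contain. It had 2126, 2439 and 2058 CPM in Hcy and 1975, 1847 and 1215 CPM in Veh. The groups did not overlap, but Hcy replicate 3 was only just above Veh replicate 1, and Veh replicate 3 was far below the others. Its log2 fold change of 0.39 did not pass (edgeR adjusted p = 0.322) and was 0.21 without Veh replicate 3.

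The other laminin chains did not pass with all libraries. Lama5, the alpha5 chain found with alpha4 in endothelial basement membrane, had 269 to 327 CPM in Hcy and 266 to 396 CPM in Veh (log2 -0.19, edgeR adjusted p = 0.633). Its groups overlapped because Veh replicate 3 was the lowest of all, and without that library the log2 value was -0.34 (adjusted p = 0.0336). Lamb2, the beta2 chain, had 670.0 to 686 CPM in Hcy and 556 to 682 CPM in Veh (log2 0.12, adjusted p = 0.585, and log2 0.05 without Veh replicate 3). Lama5 and Lamb2 are described after their values were seen. Lama1, Lama2 and Lamb3 were at most at 2.33 CPM in any library, and Lamc3 was at 0 counts throughout.

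Lama4 and Lama5 are alternative alpha chains, and Lamb1 and Lamb2 alternative beta chains. A ratio of genes measured in the same library does not depend on library scaling. It can still carry a trend with gene length such as that of Veh replicate 3. Lama5 has 11319 bases and Lama4 has 5947. These ratios were chosen after the values were seen and are given without a test. On the RPKM scale, which divides CPM by gene length in kilobases, Lama4 exceeded Lama5 by 9.68, 9.30 and 10.7 times in the Hcy libraries and by 5.58, 5.80 and 6.57 times in the Veh libraries. Lamb1 exceeded Lamb2 by 1.86, 1.84 and 1.89 times in Hcy and by 1.17, 1.20 and 1.23 times in Veh. Neither ratio overlapped between the groups, and Veh replicate 3 was the Veh library nearest to Hcy in both. Lama4 made up 90.7 ± 0.573% of the summed RPKM of alpha chains in Hcy and 85.6 ± 1.03% in Veh, and Lamb1 made up 65.1 ± 0.269% of the beta chains in Hcy and 54.5 ± 0.643% in Veh (mean ± SD, n = 3).

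**Figure D2:**
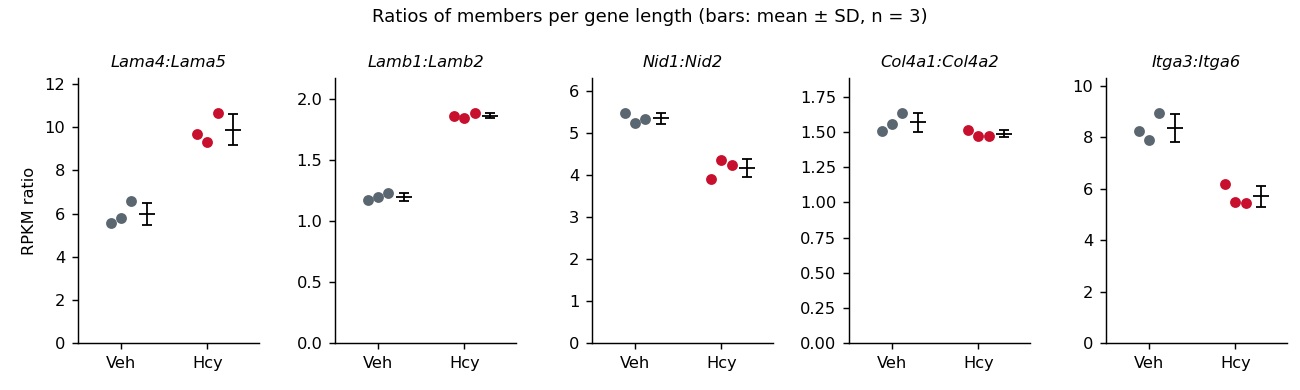
Ratio of RPKM between members of a family in each library (vertical axes, linear from 0), with bars for mean ± SD of 3 libraries. Lama4:Lama5 and Lamb1:Lamb2 are higher in every Hcy library, Nid1:Nid2 and Itga3:Itga6 are lower in every Hcy library, and Col4a1:Col4a2 overlaps.

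None of the 6 collagen IV chains passed the test, with 3 above and 3 below 0 and a median log2 fold change of 0.02. The median turned negative without Veh replicate 3 (-0.12, with 1 chain, Col4a5, passing beside 6.67% of all genes) and without Hcy replicate 2 (-0.04), and was 0.09 without Veh replicate 1 and 0.10 without Veh replicate 2. Col4a1 and Col4a2, whose chains form the collagen IV trimer of nearly all basement membranes, ranked 3 and 13 by summed counts among all genes in the table. Col4a1 had 9227, 9395 and 8843 CPM in Hcy and 9161, 8575 and 7102 CPM in Veh, and Col4a2 had 4572, 4786 and 4512 CPM in Hcy and 4563, 4132 and 3256 CPM in Veh. In both genes the groups overlapped and Veh replicate 3 was the lowest library. Their log2 fold changes of 0.15 and 0.21 did not pass (edgeR adjusted p = 0.564 and 0.468), and the 95% intervals reached from -0.06 to 0.35 and from -0.04 to 0.47. They were 0.05 and 0.09 without Veh replicate 3, and 0.22 and 0.32 without Veh replicate 1.

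The RPKM of Col4a1 was 1.51, 1.47 and 1.47 times that of Col4a2 in the Hcy libraries and 1.51, 1.56 and 1.64 times in the Veh libraries. Col4a5, a chain of the less common collagen IV networks, had a log2 fold change below 0, and Col4a1 and Col4a2 had values above 0. None of these passed with all libraries, and the difference between them was not tested. Col4a5 had 246, 294 and 263 CPM in Hcy and 359, 356 and 275 CPM in Veh, and the groups overlapped only through Veh replicate 3 and Hcy replicate 2. The log2 fold change of Col4a5 was -0.30 (edgeR adjusted p = 0.278), and without Veh replicate 3 it was -0.42 (adjusted p = 0.00791). Within libraries, the ratio of Col4a1 to Col4a5 on the RPKM scale was 31.4 to 36.9 in Hcy and 23.7 to 25.4 in Veh, with no overlap. Col4a4 had 28.7 to 41.5 CPM, Col4a6 had 7.61 to 12.6 CPM and Col4a3 had 1.87 to 4.57 CPM over all libraries, and none of the 3 passed.

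Of the other 6 basement membrane genes, 5 were above 0 and 1 passed, beside 46.9% and 2.34% of all genes, with a median log2 fold change of 0.28. The median was 0.19 without Veh replicate 3, where 2 passed beside 6.67% of all genes. The nidogens link the laminin and collagen IV networks. Nid2 had 259, 260.5 and 247 CPM in Hcy and 184, 186 and 152 CPM in Veh. The groups did not overlap, and the lowest Hcy library was well above the highest Veh library. The log2 fold change was 0.55 with a standard error of 0.09 (edgeR adjusted p = 0.0145), and 0.47 without Veh replicate 3 (adjusted p = 0.00103). It did not pass without Hcy replicate 1 (0.0832), 2 (0.0783) or 3 (0.0799). Nid2 is listed at chr15:4894213-4951917 on the - strand.

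Nid1, the more abundant nidogen, had 1269, 1416 and 1305 CPM in Hcy and 1258, 1214 and 1016 CPM in Veh. Its groups were apart by a small margin only, and its log2 fold change of 0.19 did not pass (edgeR adjusted p = 0.404) and was 0.11 without Veh replicate 3. The ratio of Nid1 to Nid2 on the RPKM scale was 4.17 ± 0.224 in Hcy and 5.35 ± 0.128 in Veh (mean ± SD, n = 3), without overlap.

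Fn1, which encodes fibronectin, the ligand of several integrins, ranked 2 by summed counts among all genes. It had 14979, 15439 and 14315 CPM in Hcy and 18559, 16269 and 13638 CPM in Veh. The Veh libraries spread on both sides of the Hcy libraries, and the log2 fold change of -0.12 did not pass (edgeR adjusted p = 0.706). Without Veh replicate 3 it was -0.22 (adjusted p = 0.0524), and without Veh replicate 1 it rounded to 0.

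Col15a1 and Col18a1 encode multiplexin collagens, which sit at the outer face of basement membranes. Col15a1 had 234, 317 and 313 CPM in Hcy and 215, 117 and 88.3 CPM in Veh. The groups did not overlap, but Veh replicate 1 was close to Hcy replicate 1. Its log2 fold change of 1.04 was the largest positive value among the tested members but had a standard error of 0.28, with a 95% interval of 0.40 to 1.68, and it did not pass (edgeR adjusted p = 0.116). Without Veh replicate 1 the log2 value was 1.49 and passed (adjusted p = 0.00902), and without Veh replicate 3 it was 0.79 (adjusted p = 0.0553). A further row, LOC108348074, carries the same Swiss-Prot match in the deposited table, so reads could be divided between them. The summed level of both was 521 ± 10.3 CPM in Hcy and 323 ± 96.4 CPM in Veh (mean ± SD, n = 3), a ratio of 1.61 in place of 2.05 for Col15a1 alone.

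Col18a1, the source of endostatin, had 752, 744 and 697 CPM in Hcy and 759.9, 697 and 647 CPM in Veh, with a log2 fold change of 0.06 and overlapping groups (edgeR adjusted p = 0.817). When single libraries were left out, its log2 value ranged from 0.0048 (Veh replicate 3) to 0.12 (Veh replicate 1). Agrn, a heparan sulfate proteoglycan of basement membranes that is described after its values were seen, had 145 to 152 CPM in Hcy and 96.9 to 127 CPM in Veh. Its groups did not overlap, yet its log2 fold change of 0.37 did not pass with all libraries (edgeR adjusted p = 0.113). It was 0.27 and passed without Veh replicate 3 (adjusted p = 0.0272), and it passed with DESeq2 on all libraries (adjusted p = 0.0184). With DESeq2, 6 members passed beside 4.19% of all genes, the 4 above together with Agrn and Itgax.

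**Figure D3:**
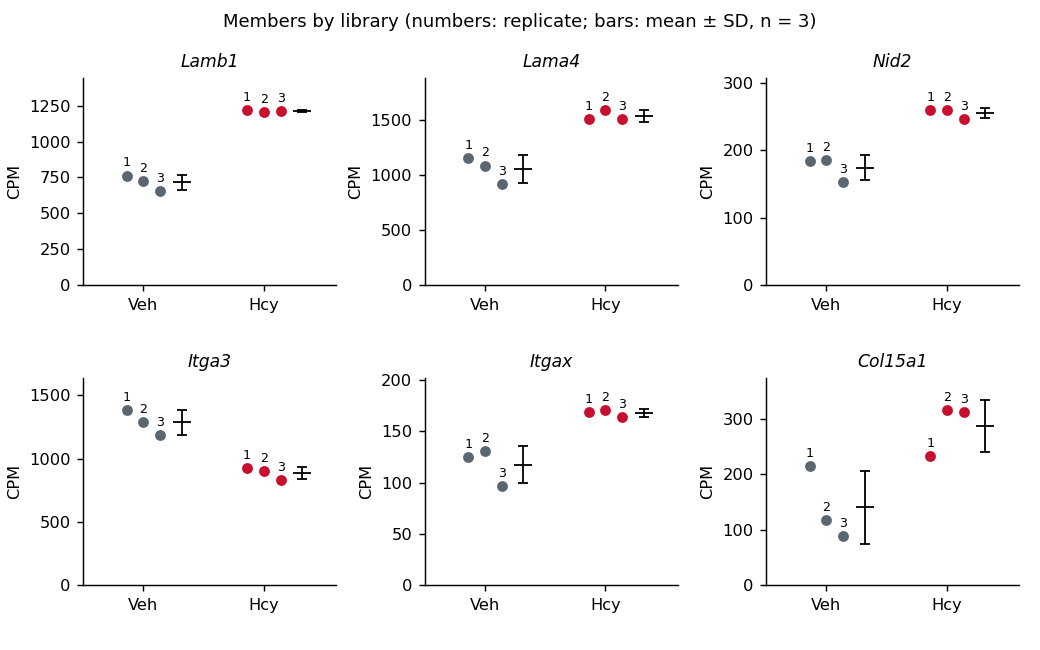
CPM (vertical axes, linear from 0) in each library for the 4 members past the adjusted threshold, Itgax and Col15a1, with points numbered by replicate and bars for mean ± SD of 3 libraries. The groups do not overlap in any panel, Itga3 alone is lower in Hcy, and the Col15a1 libraries spread widely within each group.

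Among the integrin alpha subunits, 9 of 13 tested were above 0, the median log2 fold change was 0.04 and 1 passed, beside 46.9% of all genes above 0 and 2.34% passing. Without Veh replicate 3, 5 of 13 were above 0, the median was -0.03 and 2 passed, Itga3 and Itgax, beside 49.4% of all genes above 0 and 6.67% passing. The median was 0.05 to 0.25 when another library was left out. Itga3 encodes the alpha3 subunit, which pairs with beta1 to bind laminins. It had 924, 899 and 832 CPM in Hcy and 1387, 1289 and 1189 CPM in Veh. Every Hcy library was below every Veh library, Veh replicate 3 included. The log2 fold change was -0.54 with a standard error of 0.08 (edgeR adjusted p = 0.011), so that Veh was 1.46-fold higher, and it was -0.60 without Veh replicate 3 (adjusted p = 0.000394). The adjusted p was just above 0.05 without Hcy replicate 1 (0.0521) or 2 (0.058), and 0.0807 without Hcy replicate 3. Itga3 is listed at chr10:82855613-82887497 on the - strand.

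The other laminin receptor subunit at an appreciable level, Itga6, did not show this difference. It had 181, 199 and 186 CPM in Hcy and 205, 198 and 161 CPM in Veh, with overlapping groups (log2 0.00, 95% interval -0.22 to 0.23, edgeR adjusted p = 0.99). Its log2 value was -0.09 without Veh replicate 3 and -0.03 without Hcy replicate 2. On the RPKM scale Itga3 exceeded Itga6 by 6.19, 5.50 and 5.43 times in the Hcy libraries and by 8.23, 7.90 and 8.96 times in the Veh libraries. Itga3 made up 44.4 ± 1.25% of the summed RPKM of alpha subunits in Hcy and 55.5 ± 1.46% in Veh (mean ± SD, n = 3). Itga7, the remaining laminin-binding alpha subunit, was at most at 0.358 CPM in any library.

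Itga5, whose product pairs with beta1 as the classical fibronectin receptor, had 509.9, 471 and 495 CPM in Hcy and 516, 482 and 455 CPM in Veh. The groups overlapped (log2 0.02, 95% interval -0.14 to 0.18, edgeR adjusted p = 0.936), and the sign turned without Veh replicate 3 (-0.02) and, at a value rounding to 0, without Hcy replicate 1. Itgav, the subunit of vitronectin and fibronectin receptors, had 49.1 to 79.8 CPM over all libraries and did not pass. Of the collagen-binding subunits, Itga1 had 24.3 to 47.4 CPM and Itga2 1.94 to 6.31 CPM, and neither passed. The log2 fold change of Itga1 was -0.35, and -0.58 without Veh replicate 3 (edgeR adjusted p = 0.0525). That of Itga2 was 0.30, and -0.04 without Veh replicate 3. Itga1 overlaps Pelo, a gene on the same strand with more counts. Itga4 had 23.7 to 53.0 CPM, and Itga8 and Itga9 were at most at 0.503 CPM in any library.

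Itga2b, known as the platelet alphaIIb subunit, had 2.08, 2.08 and 3.46 CPM in Hcy and 1.48, 1.34 and 1.94 CPM in Veh. The groups did not overlap, but at this low level the log2 fold change of 0.69 did not pass (edgeR adjusted p = 0.368, 95% interval 0.00 to 1.37), and it was 0.39 without Hcy replicate 3.

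Itgax, which encodes the leukocyte subunit CD11c, had a level that stood out among leukocyte-type subunits. It had 169, 171 and 164 CPM in Hcy and 125, 131 and 96.6 CPM in Veh, so the groups did not overlap. The log2 fold change was 0.52 with a standard error of 0.11, and the edgeR adjusted p of 0.0503 was just above the threshold. It passed in 7 of 14 alternatives, among them DESeq2 (adjusted p = 0.000601) and the fit without Veh replicate 3 (log2 0.39, adjusted p = 0.00362), and the adjusted p reached 0.184 in the others. Its partner subunit Itgb2 had only 2.57 to 4.87 CPM, and of the 10 microglial and macrophage markers Ptprc, Tyrobp, Cx3cr1, P2ry12 and C1qb were at 0 counts in all libraries, with a summed list level of at most 3.09 CPM in Hcy and 2.74 CPM in Veh. The deposited Itgax row (chr1:199555722-199576932, + strand) lies inside the Itgam row on the same strand, and Itgam had 7 counts in all. Itgae had 2.61 to 4.72 CPM and overlaps Ncbp3, a gene with more counts. Itgal, Itgam, Itga10 and Itga11 had too few counts to be tested.

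Of the 6 tested integrin beta subunits, 5 were above 0 and none passed, with a median log2 fold change of 0.20 (4 above 0 and 0.15 without Veh replicate 3), beside 46.9% of all genes above 0 (49.4% without Veh replicate 3). Itgb1, the common partner of most alpha subunits in these cells, ranked 25 by summed counts among all genes. It had 2751, 2906 and 2854 CPM in Hcy and 2609, 2538 and 2406 CPM in Veh. Every Hcy library was above every Veh library, but the log2 fold change was only 0.17, with a 95% interval of 0.03 to 0.31, and did not pass (edgeR adjusted p = 0.237). Summed over each family, the beta subunits reached 784 to 834 RPKM in Hcy and 679 to 748 RPKM in Veh. The alpha subunits reached 393 to 413 RPKM in Hcy and 424 to 514 RPKM in Veh. These sums rest largely on single genes and do not describe the families. Itgb1 made up 95.8% of the beta sum in Hcy and 95.7% in Veh. Itga3 made up 44.4% of the alpha sum in Hcy and 55.5% in Veh, while 9 of 13 tested alpha subunits were above 0.

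Itgb3, the partner of alphav, had 59.0, 78.8 and 59.0 CPM in Hcy and 67.3, 74.5 and 40.3 CPM in Veh, with overlapping groups. Its log2 fold change was 0.11 (edgeR adjusted p = 0.887) and was -0.11 without Veh replicate 3 and -0.04 without Hcy replicate 2. Itgb4, which pairs with alpha6, had 36.6, 34.3 and 33.5 CPM in Hcy and 29.9, 32.5 and 26.5 CPM in Veh. Its groups did not overlap, but its log2 fold change of 0.23 did not pass (edgeR adjusted p = 0.351). It overlaps Galk1, a gene on the opposite strand with more counts, and whether counting used the strand is not given in the sources used here.

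Itgb5 had 1.51, 1.01 and 1.13 CPM in Hcy and 0.831, 0.51 and 0.623 CPM in Veh, without overlap and without passing (log2 0.88, edgeR adjusted p = 0.338). Its row is typed as a processed transcript and not as protein-coding, so its level may not stand for the coding mRNA. Itgb7 was at most at 0.537 CPM in any library. Itgb6 and Itgb8 had too few counts to be tested.

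**Figure D4:**
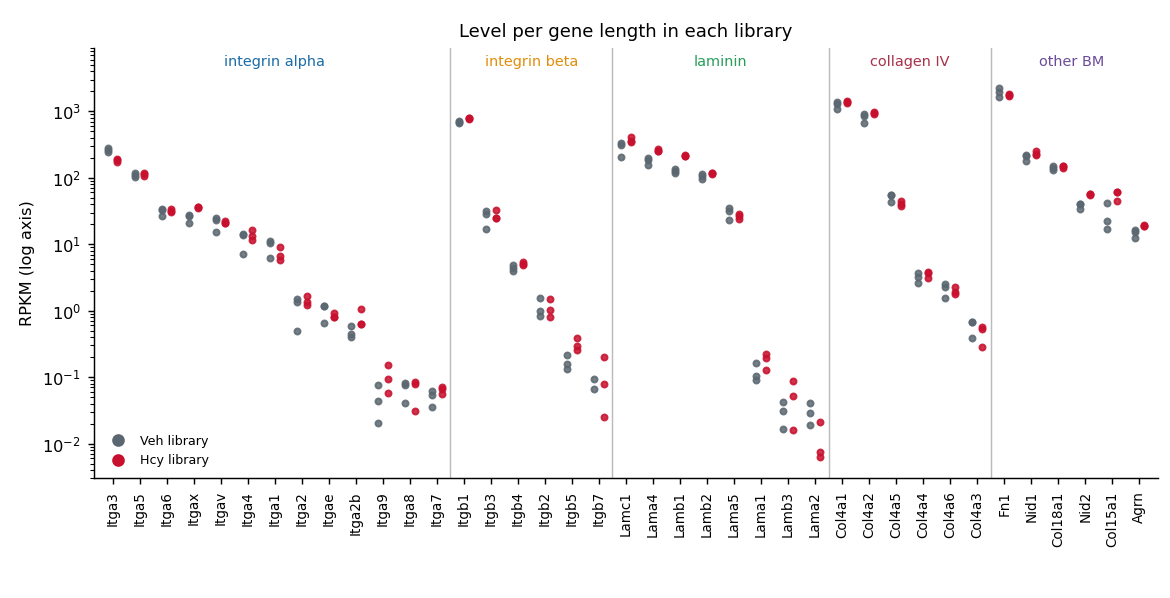
Level of tested members in each of the 6 libraries in RPKM, on a log10 axis, ordered by mean level within its family (BM, basement membrane). Fn1, with a mean of 1848 RPKM over the 6 libraries, and Col4a1, with 1325 RPKM, were the highest, and Itgb7 in Veh replicate 3, at 0 counts, is not drawn.

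Compared per gene length, each family was led by a few genes. Among alpha subunits the order was Itga3 (180.4 ± 9.70 RPKM in Hcy and 263 ± 20.2 in Veh), Itga5 (112 ± 4.48 and 110.2 ± 6.96), and then Itga6 and Itgax, whose ranges of 27.0 to 34.3 RPKM and 20.7 to 36.7 RPKM overlap. Itgb1 (776 ± 21.5 RPKM in Hcy and 688 ± 28.3 in Veh) was far above Itgb3 (27.4 ± 4.78 and 25.4 ± 7.54). Lamc1 (368 ± 33.9 and 279.9 ± 67.9 RPKM) was above Lama4 (259 ± 8.53 and 178 ± 21.0) and Lamb1 (215 ± 1.50 and 127 ± 9.73), each as mean ± SD with n = 3. Within the Hcy group the order of these 3 laminin chains held without overlap, as it did in each Veh library.

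Markers of smooth muscle also differed between the groups. Of the 6 on the list, Tagln, Cnn1 and Acta2 were lower in Hcy and Smtn was higher (edgeR adjusted p = 0.000801, 0.00177, 0.0248 and 0.0379), while Des, at a mean of 0.679 CPM in Hcy and 0.457 CPM in Veh, and Myh11, at 1.20 ± 0.292 CPM in Hcy and 1.23 ± 0.432 CPM in Veh, did not pass. The summed level was 718 to 752 CPM in Hcy and 1148 to 1385 CPM in Veh. Itga3 was lower in Hcy, as were Tagln, Cnn1 and Acta2, and Lamb1, Lama4 and Nid2 were higher. The summed pericyte markers were between 3.70 and 7.59 CPM and the summed fibroblast markers between 61.2 and 102 CPM over all libraries, and no gene of either list passed. In bulk RNA, a different share of cells of a type and a different level per cell cannot be told apart. The part of these markers in the differences of the members was not tested.

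Around these genes, 3 lists were counted in the same fit. Of the genes on the cytoplasmic side of integrins (the adhesome), 4 of 53 tested passed, 1 higher and 3 lower, with 17 above and 36 below 0 and a median log2 fold change of -0.08. Over all genes 2.34% passed, 46.9% were above 0 and the median was -0.02. In the fit that left out Veh replicate 3, 9 of 53 passed, 2 higher and 7 lower, beside 6.67% of all genes. Without any other single library, between 0 and 2 passed, 0 in the case of Hcy replicates 1, 2 and 3 and Veh replicate 1. With Veh replicate 1 left out, 23 were above and 30 below 0 and the median was -0.02, and it was -0.05 without Hcy replicate 1. Parvg, a parvin that binds integrin-linked kinase, was higher at 9.84, 9.81 and 9.19 CPM in Hcy against 4.93, 5.48 and 3.67 CPM in Veh (log2 1.03, edgeR adjusted p = 0.0195). Lims2, the PINCH adaptor of the same complex, was lower at 8.40, 6.31 and 7.46 CPM against 17.5, 12.9 and 14.5 CPM (log2 -1.02, adjusted p = 0.0148). The tensins Tns3 (log2 -0.80, adjusted p = 0.0161) and Tns2 (log2 -0.36, adjusted p = 0.0356), which tie integrin tails to actin, were lower as well. None of these 4 overlapped between groups. Leaving out a single library raised the adjusted p above 0.05 for Parvg (Hcy replicates 1, 2, 3 and Veh replicate 1), Lims2 (the same libraries), and Tns2 and Tns3 (these and Veh replicate 2), up to 0.0937, 0.0866, 0.169 and 0.0961. With the replicate number as a block, Tns2 also did not pass (edgeR adjusted p = 0.0805).

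Of the genes for basement membrane assembly and its other receptors, 2 of 51 tested passed, beside 2.34% of all genes, with a median of 0.06. The count was 6 of 49 without Veh replicate 3, 5 higher and 1 lower, beside 6.67% of all genes, and without any other single library 1 passed. Smoc1, a matrix protein of basement membranes, was higher at 74.5, 71.7 and 75.4 CPM in Hcy against 48.7, 38.7 and 37.6 CPM in Veh (log2 0.83, edgeR adjusted p = 0.00626). Tinagl1, a secreted protein of vascular basement membrane, was lower at 1566, 1445 and 1370 CPM in Hcy against 1852, 1783 and 1899 CPM in Veh (log2 -0.34, adjusted p = 0.042). Both sets of libraries were without overlap. Smoc1 passed in all 14 alternatives, whereas Tinagl1 was above 0.05 when any of Hcy replicates 1, 2 and 3 or Veh replicates 1 and 2 was left out, up to 0.238. Tinagl1 also did not pass with the replicate number as a block.

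Of the other integrin ligands, 4 of 41 tested passed, 3 higher and 1 lower, beside 1.32% higher and 1.01% lower of all genes, with a median of 0.15. The count was 8 of 40 without Veh replicate 3, 5 higher and 3 lower, beside 6.67% of all genes, and 2 passed without Hcy replicate 1 or 3 or Veh replicate 1 or 2. Without Hcy replicate 2, 3 passed and the median was 0.07. Spp1, which encodes osteopontin, was lower at 8.04, 8.06 and 6.86 CPM in Hcy against 23.3, 25.5 and 28.0 CPM in Veh (log2 -1.74, edgeR adjusted p = 0.000355). Ccn3, a matricellular ligand of several integrins, was higher at 591, 564 and 642 CPM against 332, 297 and 286 CPM (log2 0.97, adjusted p = 0.000801). Both passed in all 14 alternatives.

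Vcam1, the endothelial ligand of alpha4 integrins, was higher in Hcy but low in both groups, at 7.54, 6.58 and 9.01 CPM in Hcy against 3.50, 3.44 and 3.39 CPM in Veh (log2 1.16, edgeR adjusted p = 0.0129). Tnc, which encodes tenascin-C, was higher at 710.2, 736 and 695 CPM against 529, 519 and 386 CPM (log2 0.58, adjusted p = 0.0358). The groups of all 4 ligands were apart. The adjusted p of Vcam1 rose above 0.05 without Hcy replicate 1 or 3 or Veh replicate 1 or 2, up to 0.0799, and that of Tnc without any library other than Veh replicate 3, up to 0.145.

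**Figure D5:**
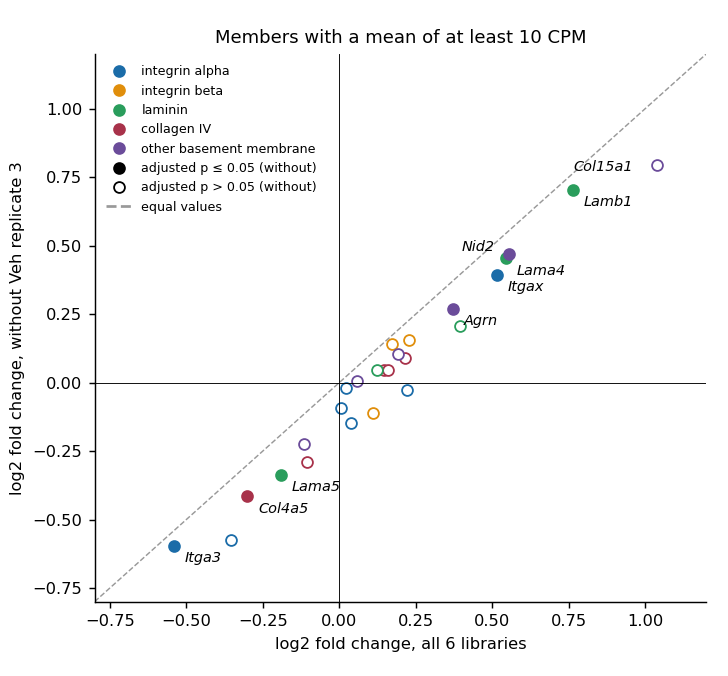
Log2 fold change of Hcy over Veh with all 6 libraries (horizontal axis) and without Veh replicate 3 (vertical axis) for members with a mean of at least 10 CPM, where the dashed line marks equal values. All points lie below the line, which follows from the lower level of these members in Veh replicate 3. Filled points are the 8 members that pass without this library.

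The comparison of both fits showed how far Veh replicate 3 set the level of the members. All 27 members at 10 CPM or more had a lower log2 fold change without it, which follows from their lower level in that library. The sign turned for Itga4, Itga5, Itga6, Itgav and Itgb3, none of which passed in either fit. Lamb1 (0.71), Nid2 (0.47), Lama4 (0.45) and Itga3 (-0.60) kept direction and passed. When the trend with gene length was instead modelled for each library and all 6 were kept, an alternative added after seeing the data, 9 members passed beside 4.07% of all genes. Among these, Lamb1, Lama4, Nid2, Itgax, Agrn and Col15a1 were higher in Hcy, and Itga3 and Col4a5 were lower. The median over the members was then 0.19.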

How the data were processed

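The deposited table holds unnormalized read counts for 33566 genes in 3 Hcy and 3 Veh libraries, beside gene positions and lengths. The submitters' processing notes name fastp, HISAT2 2.2.1, StringTie 2.2.3, Cufflinks, featureCounts 2.0.6 and DESeq2 1.42.0, and the study names mRatBN7.2. The deposited table names no build, and its chromosome 1 positions run past the end of chromosome 1 in mRatBN7.2, so printed positions of the table are not to be read as that assembly. The strand setting of the counting is not given in the sources used here. The authors' table of their own comparison (normalized counts, fold changes and p-values) was not used. Of the rows, 683 have no gene name but a gene identifier, and they were kept.

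Groups were taken from the labels. A gene entered the fit if its counts over all 6 libraries came to 10 or more, which held for 14603 genes. These were scaled by TMM factors and compared in edgeR 4.0.16 (R 4.3.3, limma 3.58.1) by the quasi-likelihood test, in a model of condition alone, and p-values were adjusted by Benjamini-Hochberg over all genes tested. Passing the test means an adjusted p of at most 0.05. CPM were computed from TMM-scaled library sizes, and RPKM by dividing them by the deposited gene length in kilobases. The script was tested on simulated data. A level of 3 counts was taken as the floor. Confidence limits came from the same edgeR fit as the p-values. They cover counting error and the spread between these libraries only.

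Members named with every library's value were those that passed, the 3 with the highest mean RPKM of each family, and those whose groups do not overlap and whose log2 fold change was 0.5 or more in size. From each of the 3 accompanying lists up to 8 genes that passed were named. The members and lists were chosen with earlier results of these data known. Alternatives were DESeq2 1.42.0, its size factors, library totals, no count filter, filterByExpr, the replicate number as a block, a prior count of 2, unadjusted p and leaving out each library, and, added after seeing the data, a gene-length offset per library (loess with a span of 0.5). Of the members, 14 share positions with another row, 8 of them on the same strand, and in 4 the other row holds over 10% as many counts. Counts over the members cover all of them, but the values of 1 member are not reported here. Promoter windows are from RefSeq (GRCr8).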

Additional observations from a re-analysis of the deposited data

How the results depend on the processing

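With all libraries 4 of 40 tested members passed, beside 2.34% of all genes. This became 9 with the gene-length offset (beside 4.07%) and 14 with the unadjusted p (beside 13.4%). It was 1 to 8 when a library was left out, where 80 to 957 of all genes passed. The lowest count arose without Hcy replicate 1, 2 or 3 and the highest without Veh replicate 3 (beside 6.67%). The count that also reached an absolute log2 fold change of 1 was 0. It became 1, Col15a1, with no count filter, with the gene-length offset and with the unadjusted p. It was 0 to 1 when a library was left out. Over all genes this share was computed for the main fit alone (0.486%), so these other counts have no background beside them. For the accompanying lists, 10 of 145 tested genes passed, beside 2.34% of all genes, and 35 with the unadjusted p, beside 13.4%. When a library was left out, 3 to 23 passed, beside 80 to 957 of all genes. The cause of these shifts was not tested. The median of the members was 0.07 to 0.25 when a library was left out and 0.17 to 0.22 under the other settings. No result past its threshold turned its sign. Of 435 further values compared, most of them for single genes, 373 kept direction and side of the threshold.

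Deviations of Hcy and Veh libraries of the same replicate number correlated at 0.0237, 0.166 and 0.0581. The mean of these was 0.0828, beside -0.0415 for libraries of different numbers. No source says that a number marks a shared culture. With the replicate number as a block, 298 of all 14603 genes and 5 members passed, the 4 of the fit without it and Itgax. With the block 0 members met both thresholds and the median was 0.19. Of the lists 9 genes passed, without Tns2 (adjusted p = 0.0805) and Tinagl1 (0.0656) and with Col1a1.

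Depth limits the 7 untested members and those near the floor, such as Itga9, Itgb7 and Lamb3, whose 95% intervals span over 2 log2 units.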

Other observations

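Several rows outside the name rule encode, or are matched to, proteins of the same families. AABR07073181.1, which RefSeq lists as a synonym of Hspg2 (perlecan, the heparan sulfate proteoglycan of basement membranes), had 501 CPM, 883 CPM and 518 CPM in the Hcy libraries and 764 CPM, 710.3 CPM and 255 CPM in the Veh libraries. Its groups overlapped, with wide spread in both, and its log2 fold change of 0.14 did not pass (edgeR adjusted p = 0.926). The direction for AABR07073181.1 rested on single libraries, with a log2 value of -0.22 without Veh replicate 3 and -0.18 without Hcy replicate 2, and 0.26 to 0.39 without another library. AABR07031193.1, with a Swiss-Prot match to Lama3, a laminin alpha chain known from epithelia, had 9 to 14 counts in Hcy and 6 to 14 counts in Veh, and did not pass (adjusted p = 0.875).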
